A study of Mus musculus with 24 samples.

Results

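The hippocampal RNA of 12 female C57BL/6 mice was used to ask whether environmental enrichment altered gene expression differently in mice with and without CREB binding protein (CBP) in forebrain excitatory neurons. The quantity described throughout is the interaction of genotype and housing, the change from standard cage (SC) to enriched environment (EE) in CBP-ifKO mice minus the same change in control mice, on the log2 scale. All 12 of the 12 mice of the series entered it, and 18251 of 55471 genes had enough counts to be tested. The lists through which it is described held 57 gene families, pathways and cell type marker sets, with 1491 tested genes among their 1573 members.

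The 4 groups held 3 mice each: control SC, control EE, CBP-ifKO SC and CBP-ifKO EE, all 3 to 6 months old. CBP-ifKO mice carried floxed Crebbp alleles and the tamoxifen-activated recombinase Camk2a-creERT2, whose promoter is active in excitatory neurons of the forebrain, so that other hippocampal cells kept an intact gene. Control mice were littermates without the recombinase, and all 4 groups had received tamoxifen, so no group shows the effect of the drug alone. EE mice lived for about a month in a large box with toys and companions. Each library came from 1 mouse and merged 2 sequencing runs. In whole hippocampus, fewer cells of a type and less RNA per cell cannot be told apart.

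CBP is a lysine acetyltransferase and coactivator. It is recruited to promoters by CREB and other transcription factors, acetylates histones there and is related in sequence and function to p300. Neuronal activity first induces immediate early genes, mostly transcription factors, and then late-response genes, which encode trophic factors, neuropeptides and synaptic proteins. Enriched housing adds physical activity, exploration and social contact, and is a widely used model of experience-dependent plasticity in the rodent hippocampus.

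Library totals, in units of 1000000 counts, lay between 26.9 and 27.97 in control mice and between 28.6 and 37.4 in CBP-ifKO mice. Every count of the 6 CBP-ifKO libraries was even, with 0 odd values among 148570 counts above 0, against 86334 odd values among 158233 in the 6 control libraries, so the totals of the 2 genotypes are not on the same footing. With the CBP-ifKO counts halved, 264 genes above 0 and 242 below had an unadjusted interaction p below 0.05, against 286 and 246 with the counts as deposited. Crebbp (chr16:4081328-4213997, GRCm38), the deleted gene, was at 70.7 to 81.9 counts per 1000000 (CPM) in control SC, 69.6 to 77.1 in control EE, 50.0 to 51.6 in CBP-ifKO SC and 44.5 to 48.3 in CBP-ifKO EE mice. The genotypes did not overlap in either housing. Recombination truncates the protein, other hippocampal cells keep the gene, and exons outside the deleted part are still counted. The Crebbp interaction was -0.08 (95% interval -0.26 to 0.11), and that of Ep300, which encodes p300, was -0.12 (-0.59 to 0.35). One library stood apart: control EE replicate 1 had a summed level of 15 choroid plexus markers of 2179 CPM, against 209 to 275 CPM in the other mice, with 1129 CPM of the choroid plexus gene Ttr.

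No single gene had an interaction that passed correction. Of 18251 genes, 0 (0%) had an adjusted p below 0.05 in edgeR's quasi-likelihood test with Benjamini-Hochberg adjustment, and the smallest adjusted p was 0.9999. An unadjusted p below 0.05 was found for 532 genes (2.91%), of which 286 (1.57%) had an interaction above 0 and 246 (1.35%) one below 0. DESeq2 likewise called 0 genes after adjustment, with 287 and 258 genes at an unadjusted p below 0.05. Without a filter on low counts edgeR called 16 genes, 13 of which had also been tested with the filter. The estimates themselves centred on 0, with a median of -0.0055 over all genes and 48.2% of them above 0. This centre is largely set by the normalisation, which scales the libraries so that the typical gene shows no change. Within each genotype, 0 genes in control and 1 in CBP-ifKO mice passed an adjusted p below 0.05 for housing alone (751 and 1565 at an unadjusted p below 0.05). Across genes, the control and CBP-ifKO changes had a Pearson r of 0.111 and a Spearman rho of 0.169 (18251 genes, which are not independent replicates, and all measured in the same 12 libraries).

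The size of interaction that these mice leave possible depended mainly on expression level, as the plot of interval half-width against mean CPM shows. The median half-width of the 95% interval was 0.32. The whole interval lay within 0.5 of 0 for 10093 genes (55.3%), and within 1 of 0, which is less than a 2-fold difference between the changes, for 13678 (74.9%). Of the genes split into 3 equal parts by mean CPM, 96.4% of the highest (above 35.3) were bounded within 0.5 and 99.7% within 1. In the middle part the shares were 69.2% and 96.7%. In the lowest part they were 0.362% and 28.5%, where the median half-width was 0.9995.

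**Figure D1:**
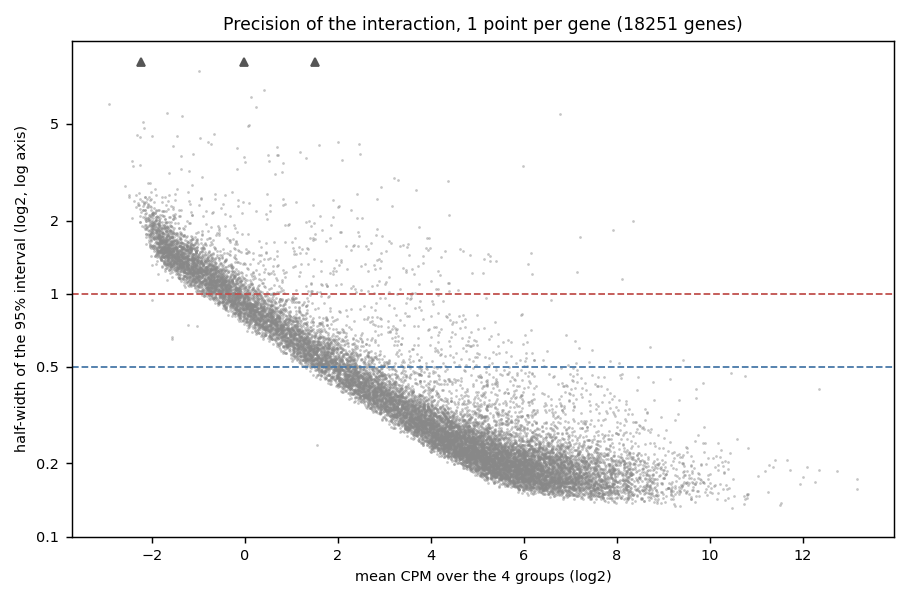
Half-width of the 95% interval of the interaction (log axis, log2 units) against the mean CPM of the 4 groups (log2), with 1 point for each of 18251 genes and dashed lines at 0.5 and 1. Half-widths narrowed with expression to a median of 0.19 in the highest of 3 equal parts, and 3 genes above the axis are drawn as triangles at 9.

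For each list, the mean log2 CPM of its tested members was taken as a score in each mouse, and the interaction of the score was given with a 95% interval from the spread between mice. The interval excluded 0 for 3 of 57 lists (5.26%), and all 3 were above 0: endothelial and mural cell markers, Wnt ligands and receptors, and components of the perineuronal net and brain matrix. The intervals are not adjusted for the number of lists, and 95% intervals leave out the true value in 5% of cases, so the count by itself is no result about these 3 lists. The lists and their members were chosen with earlier results of these data known. A share of members beside that of all genes is therefore no independent support. Members of a list were also measured in the same 12 libraries. Both signs occurred among the other estimates, with 26 of 57 scores above 0 and 31 below. The interval lay wholly within 0.2 of 0 for 18 lists and within 0.5 for 46. It reached beyond 1 for 4 lists, which were choroid plexus, meningeal fibroblast, red blood cell and immediate early genes. Of the 1491 tested list genes, 58 had an unadjusted p below 0.05 (3.89%, against 2.91% of all genes), 30 above 0 and 28 below.

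**Figure D2:**
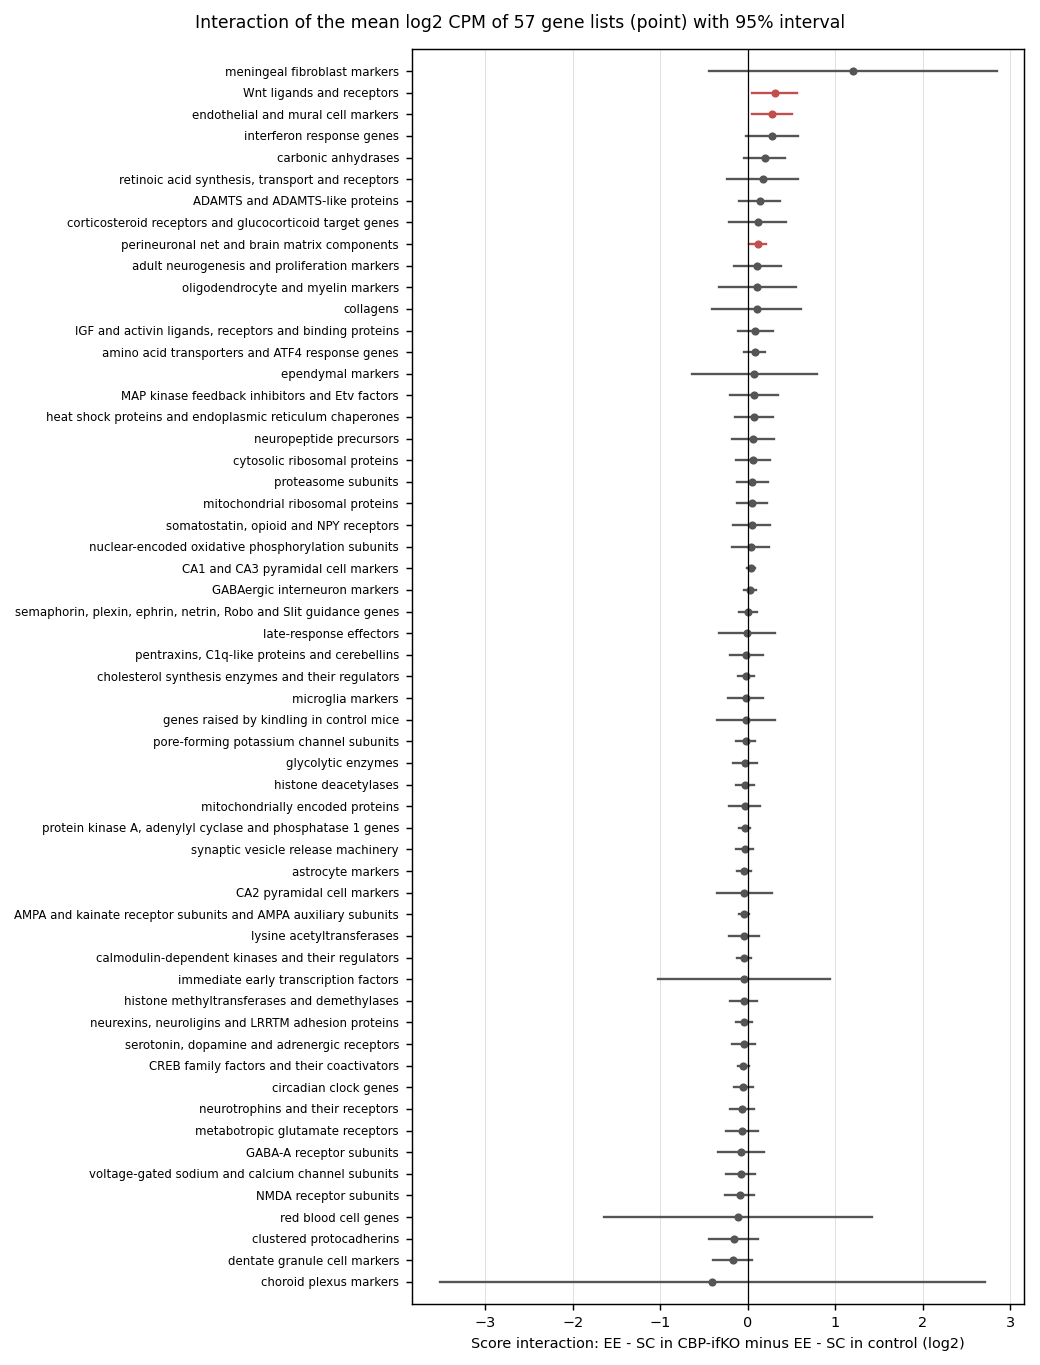
Interaction of the score of each of 57 lists (point, log2) with its 95% interval (line), ordered by the estimate, from 3 mice in each of 4 groups. The 3 intervals that exclude 0 are drawn in red, and the choroid plexus and fibroblast intervals are the widest.

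The vascular list gave the highest ratio of estimate to error. Endothelial cells line brain capillaries and form the blood-brain barrier, and mural cells (pericytes and smooth muscle) wrap them. The score of 19 markers was 4.69, 4.63 and 4.79 in control SC mice and 4.68, 4.44 and 4.65 in control EE mice. In CBP-ifKO mice it was 4.51, 4.44 and 4.57 in SC and 4.71, 4.62 and 4.67 in EE. All 3 CBP-ifKO EE mice thus lay above all 3 CBP-ifKO SC mice, while the control groups overlapped. The difference of EE from SC was -0.12 in control and 0.16 in CBP-ifKO mice, an interaction of 0.28 (SE 0.10, 95% interval 0.05 to 0.50).

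Within this list 18 of 19 markers had an interaction above 0 (48.2% of all genes), with a median of 0.20 against -0.0055 over all genes. An unadjusted p below 0.05 was found above 0 for 5 of 19 and below 0 for 0 (1.57% and 1.35% of all genes). Slco1a4 (chr6:141805440-141856199), an organic anion transporter of the blood-brain barrier, had the smallest interaction p of all genes with a value above 0. Its level was 64.6, 63.7 and 67.4 CPM in control SC, 67.2, 67.1 and 58.6 in control EE, 57.2, 52.3 and 59.9 in CBP-ifKO SC and 81.0, 72.4 and 73.4 in CBP-ifKO EE mice. The CBP-ifKO EE mice were above all other mice, and the interaction was 0.44 (0.24 to 0.65, adjusted p = 0.9999). Itm2a, an integral membrane protein of brain endothelium, was at 63.1 to 72.2 CPM in CBP-ifKO SC and 80.9 to 89.1 in CBP-ifKO EE mice, beside 60.8 to 72.8 in control SC and 62.0 to 73.8 in control EE mice, an interaction of 0.35 (0.12 to 0.58). Rgs5, a pericyte regulator of G protein signalling and the marker measured most precisely, was at 126 to 144 CPM in control SC, 119 to 134 in control EE, 99.5 to 116 in CBP-ifKO SC and 116 to 123 in CBP-ifKO EE mice, an interaction of 0.29 (0.09 to 0.49). The other 2 markers in the count of 5 were Acta2, smooth muscle actin, at 1.75 (0.30 to 3.19), and Tek, the angiopoietin receptor, at 0.28 (0.01 to 0.56). The only marker below 0 was the pericyte potassium channel Kcnj8, at -0.13 (-0.65 to 0.39).

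Of the defining endothelial markers Pecam1, Cldn5 and Flt1, the interactions were 0.20 (-0.05 to 0.45), 0.20 (-0.25 to 0.65) and 0.02 (-0.20 to 0.24), none with an unadjusted p below 0.05. Meningeal fibroblast markers had interactions of the same sign. Their score was 2.36, 3.08 and 3.35 in control SC, 2.52, 2.17 and 2.59 in control EE, 1.68, 1.78 and 3.32 in CBP-ifKO SC and 3.62, 2.44 and 2.83 in CBP-ifKO EE mice. All 12 of 12 markers had an interaction above 0 (0.23 to 2.20), against 48.2% of all genes, 0 of them had an unadjusted p below 0.05, against 2.91% of all genes, and the score interaction was 1.20 (-0.44 to 2.85). Their summed level ranged from 171 to 255 CPM in control SC, 172 to 183 in control EE, 123 to 228 in CBP-ifKO SC and 142 to 279 in CBP-ifKO EE mice, and no marker was at 0 in a group. Their part in the vascular result was not tested. With 1 mouse left out the fibroblast interaction ranged from 0.87 (-0.82 to 2.56, without CBP-ifKO EE replicate 1) to 1.73 (0.45 to 3.01, without CBP-ifKO SC replicate 3), the only such interval of 12 that excluded 0, and as the log2 of the summed CPM it was 0.55 (-0.48 to 1.57). The vascular estimate ranged from 0.20 to 0.32 with 1 mouse left out, and its interval reached 0 without control SC replicate 3, CBP-ifKO SC replicate 2 or CBP-ifKO EE replicate 1. It also included 0 when the median of the members in each mouse replaced their mean (0.38, -0.12 to 0.88).

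Wnt proteins are secreted ligands that act through Frizzled receptors and the co-receptors Lrp5 and Lrp6, and they take part in synapse formation, adult neurogenesis and vascular development. The score of 31 tested genes was 2.21, 2.26 and 2.31 in control SC, 2.20, 2.12 and 2.04 in control EE, 1.85, 1.83 and 2.06 in CBP-ifKO SC and 2.19, 1.97 and 2.07 in CBP-ifKO EE mice. The control EE mice were below the control SC mice, while the CBP-ifKO groups overlapped through SC replicate 3. The interaction was 0.31 (0.05 to 0.57), made of a score change of -0.14 in control and 0.16 in CBP-ifKO mice. With 1 mouse left out the estimate ranged from 0.25 to 0.38, and the interval reached 0 in 5 of the 12 cases, those without control SC replicate 3, control EE replicate 3, or CBP-ifKO SC replicate 1, SC replicate 2 or EE replicate 1. It rested on low genes: restricted to members with at least 1 CPM in 3 mice the estimate was 0.15, and as the log2 of the summed CPM it was 0.05, and with the median of the members in each mouse 0.26 (-0.34 to 0.86), and none of these intervals excluded 0. Among CBP-ifKO mice the Wnt and fibroblast scores were both highest in EE replicate 1 and both lowest in SC replicates 1 and 2. Control EE replicate 3 went the other way, with the lowest Wnt (2.04) and highest fibroblast score (2.59) of its group. Whether meningeal content had a part in the Wnt result was not tested.

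Of the 31 Wnt genes 4 had an unadjusted p below 0.05 with an interaction above 0, against 1.57% of all genes, and 0 had one below. Among the receptors, Fzd2 was at 4.61 to 7.22 CPM in control SC, 4.02 to 6.39 in control EE, 4.22 to 4.98 in CBP-ifKO SC and 5.93 to 8.47 in CBP-ifKO EE mice, an interaction of 0.83 (0.25 to 1.41). Fzd8 gave 0.39 (0.01 to 0.76). Among the ligands, Wnt7b, which endothelial cells of the brain receive as a barrier signal, was at 38.2 to 50.5 CPM in control and 30.0 to 35.2 CPM in CBP-ifKO mice, with an interaction of 0.27 (0.02 to 0.53). Wnt6 was close to the floor of detection, at 0.15, 0.87 and 0.98 CPM in control SC, 0.18, 0.04 and 0.04 in control EE, 0, 0.07 and 0.48 in CBP-ifKO SC and 1.09, 0.21 and 0.53 in CBP-ifKO EE mice, where 3 deposited counts in a library amount to 0.08 to 0.11 CPM. Both values of 0.04 in control EE mice (1 count each) and the values of 0 and 0.07 in CBP-ifKO SC mice lie below that floor. With the even counts of the CBP-ifKO libraries halved, 3 counts amount to 0.16 to 0.21 CPM there. Its fitted interaction of 4.52 (1.25 to 7.79) rests on these few counts.

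Wnt9a went the other way. It was at 10.4, 8.50 and 11.4 CPM in control SC and 14.8, 18.6 and 13.8 in control EE mice, with no overlap, and at 7.35, 5.82 and 7.84 CPM in CBP-ifKO SC and 10.3, 6.62 and 8.93 in CBP-ifKO EE mice, with overlap. The interaction was -0.34 (-0.84 to 0.16, adjusted p = 0.9999), so the data allow both an equal change and a change of 0.84 less. The axon guidance receptor Robo3 had a like pattern, with 32.0 to 34.0 CPM in control SC and 43.3 to 49.4 in control EE mice against 24.8 to 31.4 and 23.5 to 35.1 in the CBP-ifKO groups, an interaction of -0.34 (-0.71 to 0.04). The orphan receptor Ror1 gave -0.18 (-0.51 to 0.15), and the most precisely measured Wnt receptor, Fzd3, gave -0.02 (-0.20 to 0.15).

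**Figure D3:**
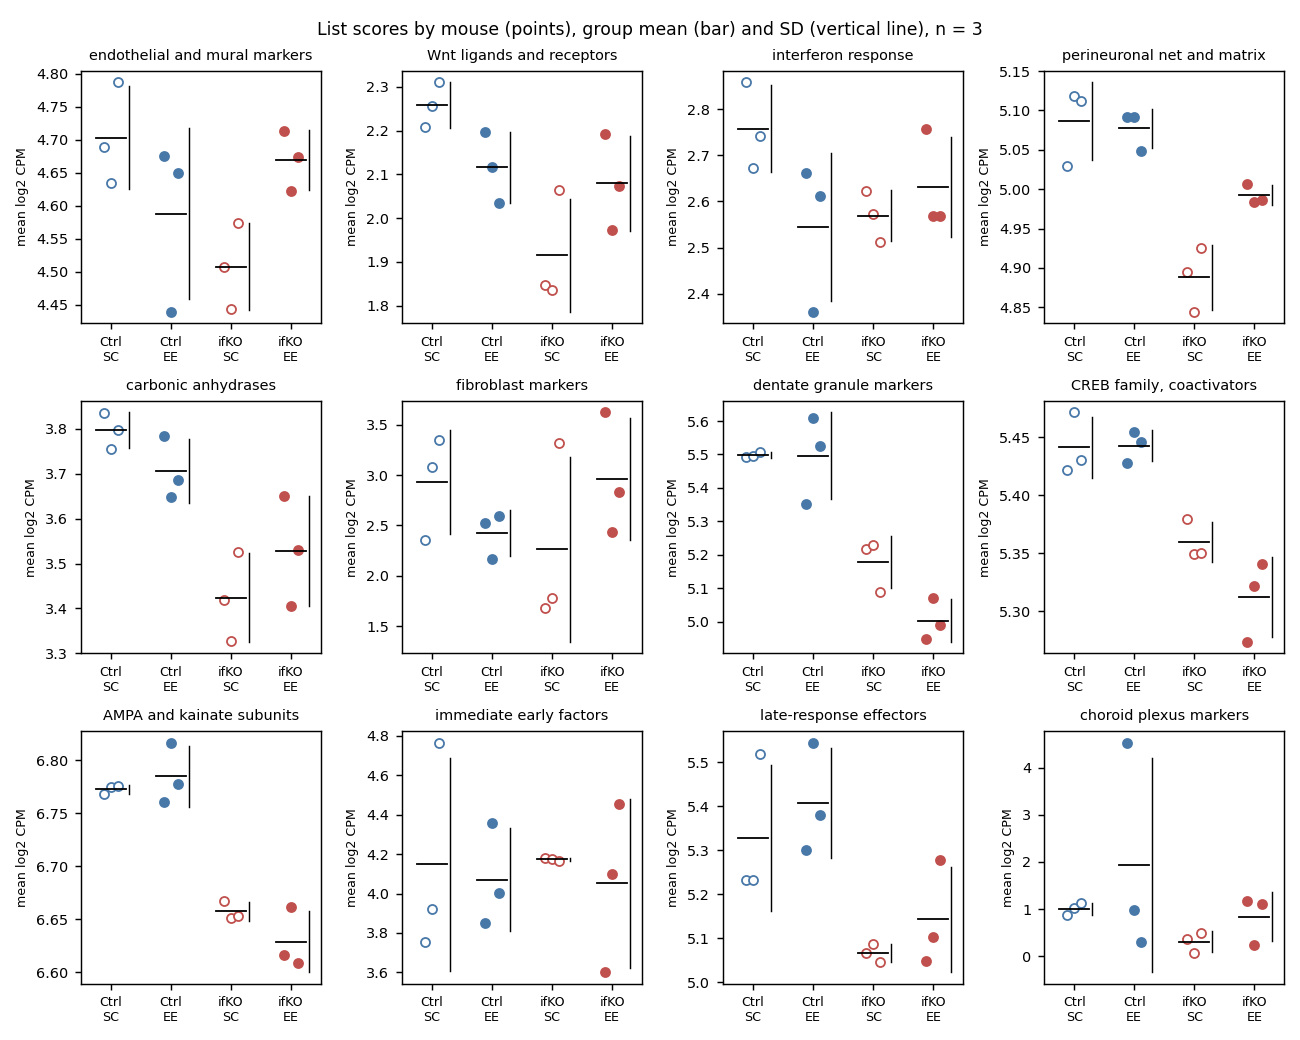
Scores of 12 lists (mean log2 CPM) in each mouse (points, open for SC and filled for EE), with the group mean (horizontal bar) and SD (vertical line), n = 3. The vascular, Wnt and matrix scores of CBP-ifKO EE mice tended to exceed those of CBP-ifKO SC mice, and control EE replicate 1 stands alone in the choroid plexus panel.

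The perineuronal net and brain matrix list holds the proteoglycans, link proteins, tenascins and thrombospondins that surround neurons. Its score was 5.03, 5.12 and 5.11 in control SC, 5.09, 5.09 and 5.05 in control EE, 4.89, 4.84 and 4.93 in CBP-ifKO SC and 5.01, 4.98 and 4.99 in CBP-ifKO EE mice. Again the CBP-ifKO groups did not overlap and the control groups did. The interaction was 0.11 (0.02 to 0.21), with 0.09 to 0.14 when 1 mouse was left out, and the interval reached 0 without control SC replicate 2 or control EE replicate 3. The sign did not carry over to the median, which over the 24 members was -0.00039, nor to the score taken as the median of the members in each mouse, which gave -0.06 (-0.32 to 0.21), and as the log2 of the summed CPM the interaction was 0.0047 (-0.05 to 0.06). The chondroitin sulphate proteoglycans Bcan (-0.01, -0.17 to 0.16) and Ncan (-0.0036, -0.21 to 0.20) were bounded within 0.5, while Acan was at -0.11 (-0.66 to 0.44). The glial matrix protein Tnc, at 0.43 (0.01 to 0.86), was the only 1 of 24 members with an unadjusted p below 0.05, against 2.91% of all genes. The link protein Hapln3 was at 0.70 (-0.02 to 1.41), and the highest estimate was that of the thrombospondin Thbs1, at 1.02 (-0.37 to 2.41). Thbs4, a thrombospondin that promotes synapse formation, was at -0.43 (-0.92 to 0.06), the neuronal link protein Hapln1 at -0.19 (-0.54 to 0.15), and the abundant astrocyte protein Sparcl1 at 0.00284 (-0.15 to 0.15).

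Interferon response genes, which are induced by antiviral signalling, had a score of 2.86, 2.67 and 2.74 in control SC, 2.66, 2.36 and 2.61 in control EE, 2.62, 2.57 and 2.51 in CBP-ifKO SC and 2.76, 2.57 and 2.57 in CBP-ifKO EE mice. The control EE mice were below the control SC mice, and the CBP-ifKO groups overlapped. The interaction was 0.28 (-0.02 to 0.57). Of the 23 genes 21 had a value above 0 (48.2% of all genes), with a median of 0.20. An unadjusted p below 0.05 was found above 0 for 3 (1.57% of all genes), with 0 below. These were Oas1a, a sensor of double-stranded RNA at 0.06 to 0.55 CPM, with 1.72 (0.25 to 3.18), Ifit1 at 0.71 (0.10 to 1.31) and Oasl2 at 0.52 (0.03 to 1.02). Oas1a had 2, 4 and 4 deposited counts in CBP-ifKO SC mice, or 0.06, 0.14 and 0.11 CPM. These values lie below the floor of 0.16 to 0.21 CPM for halved counts, so its estimate rests on few counts. Stat2, a transcription factor of the pathway and its most precisely measured member, was at -0.14 (-0.32 to 0.03), and Bst2 at -0.21 (-0.82 to 0.40). The interaction was 0.33 (0.03 to 0.64) without control EE replicate 1, an interval that excluded 0, 0.19 (-0.06 to 0.43) without control EE replicate 2, the mouse with the lowest score, and 0.12 (-0.08 to 0.33) as the log2 of the summed CPM. With a block for replicate number it was 0.28 (0.07 to 0.48), which also excluded 0.

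Carbonic anhydrases, which interconvert carbon dioxide and bicarbonate, had a score interaction of 0.19 (-0.04 to 0.43) over 12 tested genes of 16, made of -0.09 in control and 0.10 in CBP-ifKO mice. The interval excluded 0 without CBP-ifKO SC replicate 3 (0.0072 to 0.48) or CBP-ifKO EE replicate 2 (0.04 to 0.48), and with a block for replicate number (0.02 to 0.36). The estimate was 0.08 (-0.33 to 0.48) with the median of the members in each mouse and 0.07 (-0.16 to 0.30) as the log2 of the summed CPM. None had an unadjusted p below 0.05 (0 of 12, against 2.91% of all genes). The largest estimates were those of the hypoxia-regulated Car9, at 0.76 (-0.07 to 1.59) and about 1 CPM, and of Car8, at 0.33 (-0.10 to 0.75). Car7, a neuronal isoform, was higher in all EE than in all SC mice of both genotypes, with 17.6 to 22.3 against 25.8 to 28.1 CPM in control and 11.7 to 14.0 against 14.5 to 16.4 CPM in CBP-ifKO mice. Its interaction was -0.11 (-0.40 to 0.17). The values for Car11 and for Car4, the most precisely measured, were -0.07 (-0.35 to 0.21) and 0.15 (-0.10 to 0.40).

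At the other end of the order, dentate granule cell markers had the lowest ratio. Granule cells are the principal neurons of the dentate gyrus and express the Camk2a driver. Their score was 5.49, 5.50 and 5.51 in control SC, 5.35, 5.61 and 5.53 in control EE, 5.22, 5.23 and 5.09 in CBP-ifKO SC and 4.95, 5.07 and 4.99 in CBP-ifKO EE mice. Each CBP-ifKO EE mouse was below each CBP-ifKO SC mouse, and the control groups overlapped. The interaction was -0.17 (-0.39 to 0.05). It was -0.24 (-0.41 to -0.07) without control EE replicate 1, the library with high choroid plexus markers, and -0.12 without control EE replicate 2.

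Of the 13 markers 11 had an interaction below 0, with a median of -0.20, where 48.2% of all genes were above 0. An unadjusted p below 0.05 was found for 3, all below 0 (1.35% of all genes). Stxbp6, a syntaxin-binding protein, was at 135, 134 and 131 CPM in control SC, 125, 147 and 135 in control EE, 123, 119 and 102 in CBP-ifKO SC and 85.8, 98.2 and 97.8 in CBP-ifKO EE mice. The CBP-ifKO EE mice were the lowest of all, and the interaction was -0.32 (-0.54 to -0.10, adjusted p = 0.9999). The desmosomal protein gene Dsp was at -0.45 (-0.80 to -0.10) and the Notch coactivator Maml2 at -0.27 (-0.52 to -0.02). Il16, the marker with the smallest error, was at -0.20 (-0.42 to 0.02), and the 2 markers above 0 were Tdo2 at 0.06 (-0.36 to 0.48) and Pdzd2 at 0.04 (-0.41 to 0.50). The markers of CA1 and CA3 pyramidal cells, the other principal neurons, had a score interaction of 0.04 (-0.01 to 0.08), the narrowest interval of all 57 lists, with 1 of 14 members at an unadjusted p below 0.05 in each direction (1.57% of all genes above 0 and 1.35% below). Without control EE replicate 2 that score interaction was 0.05 (0.0014 to 0.09), an interval that excluded 0.

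CREB family factors and their coactivators, the partners through which CBP reaches its targets, had a score of 5.42, 5.47 and 5.43 in control SC, 5.43, 5.45 and 5.45 in control EE, 5.38, 5.35 and 5.35 in CBP-ifKO SC and 5.27, 5.32 and 5.34 in CBP-ifKO EE mice. The interaction was -0.05 (-0.11 to 0.02). It was -0.12 (-0.35 to 0.11) with the median of the members in each mouse and -0.03 (-0.08 to 0.02) without CBP-ifKO EE replicate 1. Of 19 members 13 were below 0, where 48.2% of all genes were above 0. An unadjusted p below 0.05 was found for 2 members, both below 0 (1.35% of all genes were so below 0). Both are CREB-regulated transcription coactivators that enter the nucleus on calcium and cAMP signals. Crtc3 was at 25.2 to 28.1 CPM in control SC, 27.8 to 30.3 in control EE, 27.3 to 29.3 in CBP-ifKO SC and 23.3 to 25.7 in CBP-ifKO EE mice, an interaction of -0.28 (-0.49 to -0.06). Crtc1 was at 268 to 289 CPM in control SC, 257 to 272 in control EE, 223 to 246 in CBP-ifKO SC and 184 to 217 in CBP-ifKO EE mice, an interaction of -0.19 (-0.38 to -0.004). The CBP-ifKO groups did not overlap for either. The factors Crem and Creb3 were above 0, at 0.17 (-0.11 to 0.45) and 0.13 (-0.09 to 0.34), and Mef2a was at -0.04 (-0.20 to 0.12).

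The subunits of AMPA and kainate receptors, which carry fast excitatory transmission, and auxiliary proteins of these receptors had a score interaction of -0.04 (-0.10 to 0.01). It was -0.06 (-0.10 to -0.0089) without CBP-ifKO EE replicate 2, an interval that excluded 0, and -0.07 (-0.23 to 0.08) as the log2 of the summed CPM. All 22 of 22 genes were bounded within 0.5 (55.3% of all genes and 96.4% of the most highly expressed ones, as above), and 0 had an unadjusted p below 0.05 (2.91% of all genes). The lowest were the auxiliary subunit Shisa7, at -0.18 (-0.37 to 0.02), and the kainate subunit Grik5, at -0.14 (-0.31 to 0.04). Neto2 and Cacng4 had the highest values, 0.11 (-0.10 to 0.33) and 0.10 (-0.14 to 0.34), and Shisa9, with the smallest error, was at -0.04 (-0.21 to 0.14).

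The genes of protein kinase A, the adenylyl cyclases that make its activator cAMP, and protein phosphatase 1 had a score interaction of -0.03 (-0.09 to 0.03). Of the 26 genes 21 were bounded within 0.5 (55.3% of all genes and 96.4% of the most highly expressed ones). With the median of the members in each mouse the score interaction was -0.23 (-0.43 to -0.03), an interval that excluded 0. Only Adcy4, a cyclase that is also found in blood vessels, had an unadjusted p below 0.05 (1 of 26, against 2.91% of all genes). It was at 3.78 to 5.30 CPM in control SC, 2.82 to 4.52 in control EE, 2.28 to 3.77 in CBP-ifKO SC and 3.26 to 5.06 in CBP-ifKO EE mice, an interaction of 0.83 (0.18 to 1.47). Adcy6 followed at 0.12 (-0.12 to 0.35). The neuronal cyclases Adcy9 and Adcy1 were at -0.39 (-0.94 to 0.15) and -0.31 (-0.74 to 0.12), and the regulatory subunit Prkar1a, with the smallest error, at 0.01 (-0.13 to 0.16).

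Clustered protocadherins, cell surface proteins that give neurons individual identities and are read from neighbouring promoters on chromosome 18, had a score interaction of -0.16 (-0.44 to 0.12) over 54 tested genes. The sign was below 0 for 40 of the 54, and 4 had an unadjusted p below 0.05, all below 0, against 1.35% of all genes. These were Pcdhga2 at -0.60 (-0.96 to -0.24), Pcdhga12 at -0.51 (-0.86 to -0.17), Pcdhb6 at -0.62 (-1.05 to -0.19) and Pcdha3 at -0.59 (-1.17 to -0.02). Pcdhga1 and Pcdha11 had the smallest p above 0, at 0.64 (-0.00476 to 1.29) and 0.65 (-0.21 to 1.51), and Pcdhb9 the smallest error, at 0.07 (-0.20 to 0.33). Members of the alpha and of the gamma cluster share their last exons, so their counts are not independent and could be split between them. Without control EE replicate 2 the score interaction was -0.06.

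**Figure D4:**
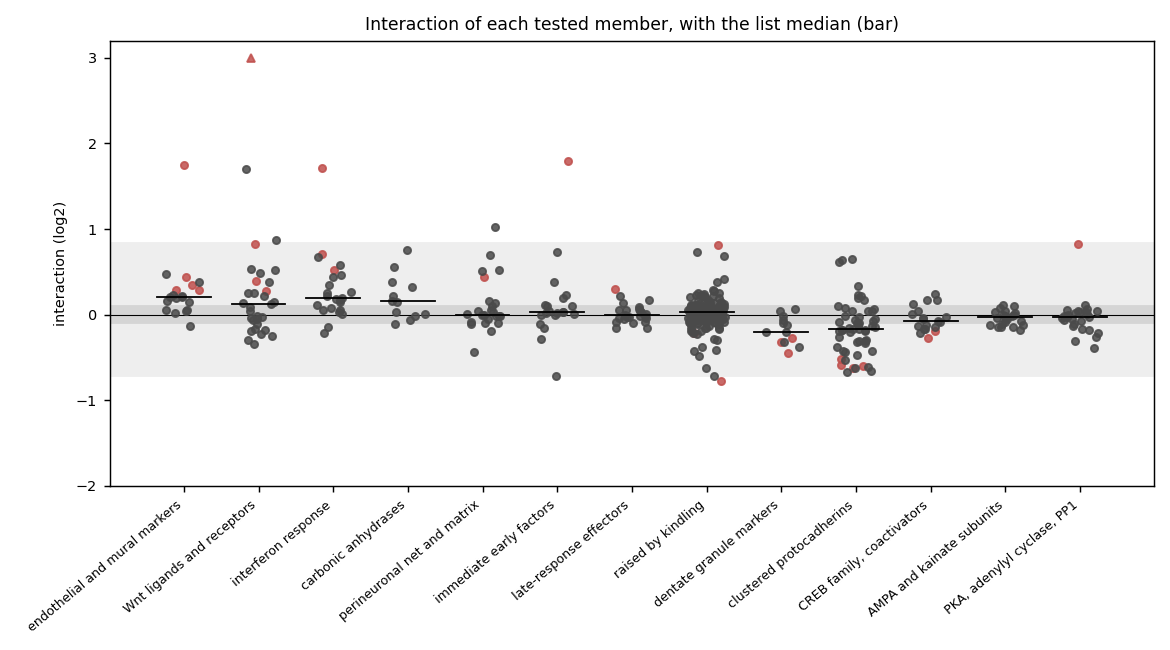
Interaction (log2) of each tested member of 13 lists, red where the unadjusted p was below 0.05, with the list median as a bar. The light and dark grey bands hold the central 95% (-0.72 to 0.84) and 50% (-0.10 to 0.10) of all genes, and Wnt6 at 4.52 is drawn as a triangle at 3.

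For immediate early transcription factors the data set only wide bounds. The score of 20 genes was 3.75, 3.92 and 4.77 in control SC, 3.85, 4.36 and 4.002 in control EE, 4.18, 4.17 and 4.17 in CBP-ifKO SC and 3.60, 4.10 and 4.45 in CBP-ifKO EE mice. All groups overlapped, and control SC replicate 3 was the highest of all mice. The interaction was -0.04 (-1.03 to 0.94), about a 2-fold difference in either direction at its ends, and it was -0.35 without control SC replicate 3. The median of the members' own interactions was 0.03, of the opposite sign, and the score taken as the median of the members in each mouse gave -0.37 (-1.66 to 0.93). Fos, the best known member, ran from 4.83 to 47.3 CPM among control SC and from 5.22 to 35.6 CPM among CBP-ifKO EE mice, and its interaction was 0.23 (-2.69 to 3.14). The neuronal factor Npas4 was at -0.72 (-2.22 to 0.78), Junb at -0.29 (-1.64 to 1.07) and Jun, with the smallest error, at 0.02 (-0.21 to 0.25).

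Maff, a small Maf factor, was the only 1 of 20 immediate early genes with an unadjusted p below 0.05, against 2.91% of all genes. It was at 0.67, 0.72 and 1.52 CPM in control SC, 0.51, 0.54 and 0.37 in control EE, 0.60, 0.28 and 0.85 in CBP-ifKO SC and 0.98, 0.96 and 1.06 in CBP-ifKO EE mice. EE mice thus lay below SC mice in control and above them in CBP-ifKO mice, with no overlap in either genotype, a pattern shown by 29 of 18251 genes (0.159%). The reverse pattern was shown by 17 genes (0.0931%). The interaction of Maff was 1.80 (0.63 to 2.97), and Atf3, a stress-induced factor, followed at 0.73 (-0.12 to 1.58).

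Late-response effectors were bounded more closely. The score of 24 genes had an interaction of -0.00422 (-0.32 to 0.32), made of 0.08 in each genotype. Of the 24 members 16 lay within 0.5 (55.3% of all genes and 96.4% of the most highly expressed ones). Nptx2, a synaptic pentraxin, had the clearest parallel change. It was at 15.3, 15.6 and 19.7 CPM in control SC against 25.2, 29.3 and 27.7 in control EE, and at 8.67, 7.82 and 8.63 in CBP-ifKO SC against 11.3, 13.0 and 15.9 in CBP-ifKO EE mice. EE lay above SC without overlap in both genotypes, at 0.70 (SE 0.12) in control and 0.68 (SE 0.12) in CBP-ifKO mice, and the interaction was -0.02 (-0.38 to 0.34). Relative to its level in SC, the change of Nptx2 in CBP-ifKO mice was thus bounded to within 0.38 of that in control mice, while its CPM stayed lower in every CBP-ifKO mouse than in any control mouse except that CBP-ifKO EE replicate 3 exceeded control SC replicates 1 and 2.

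Penk, the enkephalin precursor, was the only 1 of 24 late-response genes with an unadjusted p below 0.05, against 2.91% of all genes. It was at 24.0, 20.8 and 22.7 CPM in control SC, 29.2, 25.6 and 28.3 in control EE, 11.4, 11.4 and 10.2 in CBP-ifKO SC and 18.6, 14.3 and 17.2 in CBP-ifKO EE mice. The log2 change was 0.30 in control and 0.60 in CBP-ifKO mice, an interaction of 0.30 (0.01 to 0.59). On the linear scale the group means differed by a like amount in both genotypes, 22.5 to 27.7 CPM and 10.998 to 16.7 CPM. Exons of Penk overlap those of A830012C17Rik on the other strand, and the strand setting of the counting is not given in the sources used here. The same holds for Bdnf, Jun, Junb, Crem, Nrn1, Tnc, Car9, Dsp, Il16, Creb3, Mef2a, Neto2, Adcy6, Pcdh8, Tbx18, Pxmp2, Pcdhga1 and Pcdhga12, whose exons also overlap a gene on the other strand, so their values are uncertain to that extent. Bdnf, the trophic factor, was at 46.1 to 55.0 CPM in control SC, 48.1 to 65.0 in control EE, 30.1 to 33.8 in CBP-ifKO SC and 32.4 to 39.6 in CBP-ifKO EE mice, an interaction of -0.05 (-0.37 to 0.27). Arc, an immediate early gene that encodes a cytoskeletal protein, varied as the immediate early transcription factors did, with an interaction of -0.03 (-1.75 to 1.69). The trafficking receptor Sorcs3 gave -0.16 (-0.35 to 0.04), the kinase Plk2 -0.09 (-0.28 to 0.10) and the growth factor Nrn1, with the smallest error, -0.09 (-0.27 to 0.09).

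**Figure D5:**
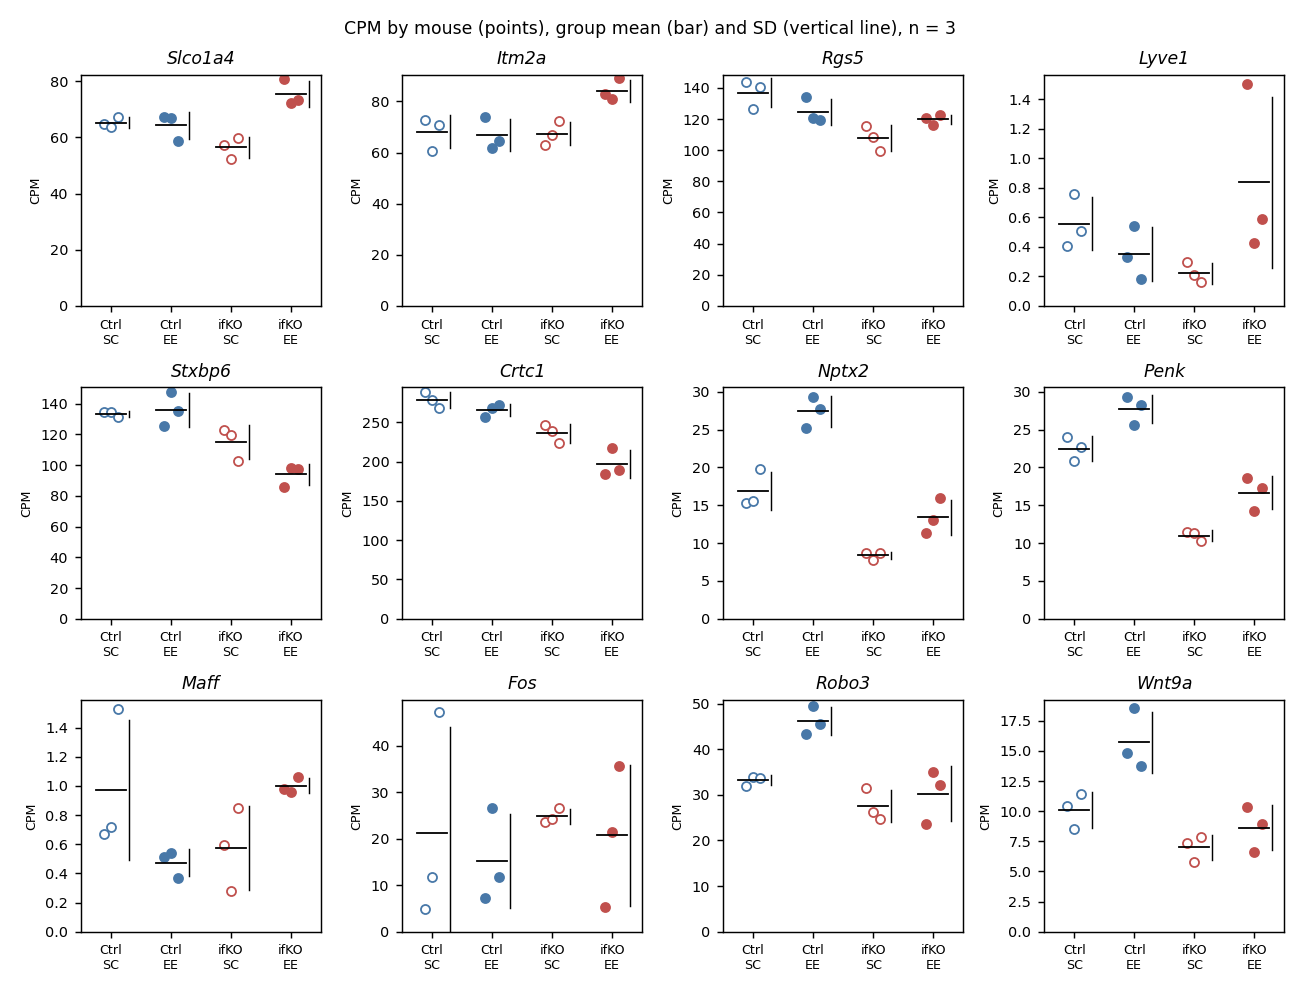
CPM of 12 genes in each mouse (points, open for SC and filled for EE), with the group mean (horizontal bar) and SD (vertical line), n = 3. In Nptx2 and Penk the EE mice lie above the SC mice in both genotypes, in Robo3 and Wnt9a only the control groups are apart, and in Slco1a4 and Itm2a only the CBP-ifKO groups.

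CREB binds the cAMP response element, a palindrome of 8 bases read the same on both strands. It was searched for in the 250 bases before each start of a set of RefSeq transcription starts (GRCm38.p6). Of 32851 promoters 508 (1.55%) held it, or 478 of 27025 genes (1.77%). The set does not cover every gene, and 12734 of the 18251 tested genes had a promoter in it. Of the late-response list 16 of 24 genes had a promoter in that set and 3 held the element, namely Scg2, Pcsk1 and Plk2. Of the immediate early list 16 of 20 had one and, of these 16, only Maff held all 8 bases. Shorter or altered forms of the element were not searched for. The start used for Maff lies inside the annotated gene (chr15:79346621-79359076). The last 100 bases before the start are shown for these 4 because they join the list that was bounded around 0 with the 1 immediate early gene that had an unadjusted p below 0.05, with the element in capitals.
Maff (chr15:79347420-79347519, plus strand): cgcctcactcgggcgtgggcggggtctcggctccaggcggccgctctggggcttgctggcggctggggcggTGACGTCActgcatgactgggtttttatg
Scg2 (chr1:79440027-79440126, minus strand): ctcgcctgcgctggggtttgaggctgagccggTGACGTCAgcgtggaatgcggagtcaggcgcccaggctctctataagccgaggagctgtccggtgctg
Pcsk1 (chr13:75089757-75089856, plus strand): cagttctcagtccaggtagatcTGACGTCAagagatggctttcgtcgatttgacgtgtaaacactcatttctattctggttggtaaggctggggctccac
Plk2 (chr13:110394944-110395043, plus strand): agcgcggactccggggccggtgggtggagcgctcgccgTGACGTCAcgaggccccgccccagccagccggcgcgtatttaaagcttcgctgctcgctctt

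The element ended 21 bases before the start in Maff, 60 in Scg2, 70 in Pcsk1 and 54 in Plk2. Beside the 1.80 of Maff, the interactions were -0.02 (-0.23 to 0.19) for Scg2, a granin of secretory vesicles, 0.00420 (-0.35 to 0.35) for the prohormone convertase Pcsk1, and -0.09 for Plk2. Over all 359 tested genes with the element the median interaction was 0.00068 and the score interaction 0.0097 (-0.02 to 0.04), beside -0.0048 and 0.01 (-0.02 to 0.05) over the 12734 tested genes with a promoter in the set. Of the 359 genes with the element, 3 had an unadjusted p below 0.05 above 0 and 1 below, and of the 12734 genes 191 and 161.

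The kindling list holds the upregulated part of the genes that the study selected for their response to kindling, a course of repeated seizures, in other, male control mice. It has 166 genes, the downregulated ones being left out, and 144 were tested here. The score interaction was -0.02 (-0.36 to 0.31), the median of the members' own interactions 0.03, and the score taken as their median in each mouse -0.0080 (-0.31 to 0.29). An unadjusted p below 0.05 was found above 0 for 1 of 144 genes, the noncoding Gm15721 at 0.81 (0.00263 to 1.62), and below 0 for 2, against 1.57% and 1.35% of all genes. The latter were the protocadherin Pcdh8, which is induced by activity, at -0.21 (-0.41 to -0.01), and Utp14b at -0.78 (-1.51 to -0.05). The mitochondrial tRNA gene mt-Te was at 0.68 (-0.03 to 1.40), and Fbxw7, with the smallest error, at 0.02 (-0.13 to 0.17). The bounded share was 83 of 144 within 0.5 and 113 within 1, against 55.3% and 74.9% of all genes.

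The genes with the smallest interaction p over the whole table were mostly low in expression. Above 0, beside Slco1a4, these were the egg coat gene Zp2 (1.79, 0.82 to 2.75), Tbx18, a transcription factor of mural and meningeal cells (1.34, 0.59 to 2.10), Lyve1, a marker of lymphatic vessels and perivascular macrophages (2.58, 1.03 to 4.13), and the predicted gene Gm29771 (1.53, 0.60 to 2.45). Lyve1 was at 0.41, 0.76 and 0.51 CPM in control SC, 0.33, 0.54 and 0.18 in control EE, 0.30, 0.21 and 0.16 in CBP-ifKO SC and 1.50, 0.43 and 0.59 in CBP-ifKO EE mice. Its deposited counts in CBP-ifKO SC mice were 10, 6 and 6, so its estimate rests on few counts. Tbx18 was at 2.86 to 4.17, 1.66 to 2.85, 1.91 to 3.28 and 2.94 to 5.12 CPM in the same order of groups. Below 0 were the predicted genes Gm11681 (-1.21, -1.83 to -0.59) and AC171111.1 (-0.64, -0.99 to -0.29), the serine protease Tmprss6 (-2.49, -3.80 to -1.17), the glutathione transferase Gstm1 (-0.29, -0.46 to -0.12) and the peroxisomal membrane protein Pxmp2 (-0.77, -1.23 to -0.32). Gstm1 was the most abundant of these, at 132 to 148 CPM in control SC, 144 to 148 in control EE, 124 to 134 in CBP-ifKO SC and 109 to 117 in CBP-ifKO EE mice, so the CBP-ifKO EE mice were the lowest of all 12. Tmprss6 had only 2, 10 and 6 deposited counts in CBP-ifKO EE mice, so its estimate rests on few counts.

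All lists are summarised by theme, those described above included. Over 7 activity-regulated lists the score interaction ran from -0.07 to 0.07, with 5 below 0, and over 5 lists of synapse and wiring from -0.16 to 0.31, where protocadherins were the lowest and Wnt genes the highest. Over 3 matrix lists all 3 estimates were above 0 (0.11 to 0.14), bounded between -0.40 and 0.61. Over 8 lists of receptors and channels the score interaction ran from -0.09 to 0.05, with 7 below 0, and every interval lay between -0.34 and 0.25. Over 4 lists of chromatin regulators all 4 estimates were below 0 (-0.05 to -0.03), bounded between -0.21 and 0.13. Over 4 signalling lists the estimates ran from -0.04 to 0.17 and over 13 lists of housekeeping, stress and metabolism from -0.05 to 0.28, where the interferon list was the highest. Among the cell type markers, microglia (-0.02, -0.22 to 0.18), astrocytes (-0.04, -0.12 to 0.04) and GABAergic interneurons (0.03, -0.04 to 0.09) were bounded closely. Without control SC replicate 2 the astrocyte score interaction was -0.07 (-0.12 to -0.01), an interval that excluded 0. Oligodendrocyte markers were bounded less closely (0.11, -0.33 to 0.55). Choroid plexus markers gave -0.40 (-3.52 to 2.72) with all mice and 0.90 (-0.14 to 1.93) without control EE replicate 1.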

How the data were processed

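The authors deposited 1 table of raw gene counts for 12 mice, with the 2 runs of each mouse merged. Per the labels and the study's methods, single-end reads of 50 bases were checked with FastQC 0.11.8, trimmed with Trim Galore 0.6.4, aligned with STAR 2.6.1 to mm10 (GRCm38), kept above a mapping quality of 10 and counted on exons with Rsubread. The submitters' notes also name DESeq2 1.30.1.

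Columns were assigned to groups by the mouse code in the sample titles. Of 55471 genes 55144 matched a symbol and position in the annotation (GENCODE M21, GRCm38). Genes passing filterByExpr with the 4 groups were normalised by TMM and fitted with 1 coefficient per group in edgeR 4.0.16 (robust quasi-likelihood, R 4.3.3). The interaction was tested as 1 contrast with Benjamini-Hochberg adjustment at 0.05. The script was tested on simulated data. CPM values are TMM-normalised. A list's score averages its members' log2 CPM (prior count 2), with intervals on 8 residual degrees of freedom and no p-value. Lists given on their own were the immediate early, late-response and kindling lists and the 5 with the highest and 5 with the lowest ratio of score interaction to SE. Named genes were 10 set by name, the 5 with the smallest p in each direction, and in each such list up to 2 in each direction with the smallest p and the one with the smallest SE. Others were named to complete a count or after their values were seen. The members and lists were chosen with earlier results of these data known. The p-values and intervals measure the spread between 3 mice a group. DESeq2 1.42.0, its size factors, other filters, prior counts and summaries, a replicate block, halved CBP-ifKO counts and leaving out each mouse were alternatives.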

Additional observations from a re-analysis of the deposited data

Results flagged for a closer look

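Among the genes named above, 5 had every EE mouse beyond every SC mouse in opposite directions in the 2 genotypes. EE mice were lower in control and higher in CBP-ifKO mice for Zp2 (interaction 1.79), Gm29771 (1.53) and Maff (1.80), and the reverse for Tmprss6 (-2.49) and Pxmp2 (-0.77). These patterns were shown by 0.159% and 0.0931% of all tested genes, no adjusted p passed the threshold, and the difference between genotypes was not tested beyond that interaction. The value of Tmprss6 rests on few counts, with 2, 10 and 6 deposited counts in CBP-ifKO EE mice.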

How the results depend on the processing

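Without a filter on low counts, 16 genes had an adjusted p below 0.05 (among them Slco1a4, Tbx18, Gm11681, AC171111.1 and Wnt6), with 649 genes above and 603 below 0 at an unadjusted p below 0.05. With 1 mouse left out these counts were 0 to 1 adjusted (Gm30055, without control EE replicate 1), 184 (without control SC replicate 3) to 445 (without CBP-ifKO SC replicate 3) above 0, and 177 (without control SC replicate 3) to 553 (without control SC replicate 2) below 0. With 1 mouse left out, genes bounded within 0.5 numbered 9492 to 9989 and within 1 13296 to 13509. The sources used here do not say whether replicate numbers pair the mice. In control mice same-numbered deviations correlated at 0.03 to 0.30 (mean 0.18, against -0.09 for different numbers). In CBP-ifKO mice they correlated at -0.05 to 0.09 (mean -0.0011, against 0.00058). Whether the number marks a shared batch was not tested. With the replicate block 0 genes were called, 327 lay above and 342 below 0, 10236 and 13710 were bounded within 0.5 and 1, 6 lists excluded 0, and Fos became -0.41. The 3 lists added were interferon (0.28, 0.07 to 0.48), carbonic anhydrases (0.19, 0.02 to 0.36) and sodium and calcium channels (-0.08, -0.15 to -0.0067).

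With the median of the members in each mouse, the intervals of all 3 lists that had excluded 0 included it, and 5 others excluded it: pentraxins (-0.26), NMDA receptors (-0.16), kinase A (-0.23), neurogenesis (0.22) and ADAMTS genes (0.27). The count was 1 with the summed CPM (vascular) and 1 to 6 with 1 mouse left out. Intervals that newly excluded 0 with 1 mouse left out, beside those given in the report, were those of ADAMTS genes (0.22, without control SC replicate 1), amino acid transporters (0.11, without control EE replicate 3), neurogenesis markers (0.21, without CBP-ifKO SC replicate 3) and NMDA receptors (-0.14, without CBP-ifKO EE replicate 2). That median gave 0.38 (-0.12 to 0.88) for vascular, -0.056 for matrix, 0.077 for carbonic anhydrases, -0.12 for CREB and -0.37 for immediate early genes. The summed CPM gave 0.0047 for matrix, 0.055 for Wnt, 0.12 for interferon, 0.070 for carbonic anhydrases, -0.075 for AMPA and kainate and -0.064 for kinase A genes. Members at 1 CPM in 3 mice gave 0.15 for Wnt. With 1 mouse left out the scores ranged from 0.20 to 0.32 for vascular, 0.25 to 0.38 for Wnt, 0.09 to 0.14 for matrix, 0.19 to 0.33 for interferon, 0.13 to 0.26 for carbonic anhydrases, -0.24 to -0.12 for dentate, -0.06 to -0.03 for CREB, -0.06 to -0.02 for AMPA and kainate, -0.22 to -0.06 for protocadherins, -0.05 to -0.02 for kinase A, -0.35 to 0.18 for immediate early, -0.10 to 0.07 for late-response and -0.13 to 0.05 for kindling genes. With halved counts Sparcl1 became -0.0013 and Pcsk1 -0.0020.

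With 1 mouse left out, 18 named genes near 0 changed sign: Ep300 (-0.30 to 0.036), Bdnf (-0.16 to 0.050), Nptx2 (-0.16 to 0.087), Arc (-0.63 to 0.33), Fos (-1.14 to 0.90), Jun (-0.090 to 0.12), Fbxw7 (-0.0069 to 0.050), Sparcl1 (-0.027 to 0.047), Fzd3 (-0.078 to 0.023), Car11 (-0.16 to 0.036), Tdo2 (-0.049 to 0.21), Pdzd2 (-0.079 to 0.23), Mef2a (-0.074 to 0.0098), Shisa9 (-0.080 to 0.012), Pcdhb9 (-0.0042 to 0.14), Prkar1a (-0.012 to 0.050), Scg2 (-0.079 to 0.046) and Pcsk1 (-0.086 to 0.12). A fit without the robust option, chosen after seeing the data, gave 319 genes above and 255 below 0. The cause of these differences was not tested.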
